A study of Mus musculus with 9 samples.

Results

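The transcription factors that direct the dendritic cell lineage were followed across genotypes in Mac1+ bone marrow cells of C57BL/6 mice. They comprise Irf4, Irf8, Batf3, Batf, Id2, Zeb2, Klf4, Zbtb46, Bcl11a and Ikzf1, 10 of the 23420 gene symbols in the expression table. They were matched by exact symbol, and the list was chosen with earlier results of these data known. RNA was sequenced in 9 libraries, each made from 100 sorted cells. All groups carried the floxed alleles Ezh2 fl/fl and Runx1 fl/fl. The DKOITD group (n = 4) also carried Rag1Cre and Flt3 ITD/+, an internal tandem duplication in 1 allele of the receptor tyrosine kinase gene Flt3. The ITD group (n = 2) had Flt3 ITD/+ and no Cre, so its Ezh2 and Runx1 remained floxed and undeleted by design. The WT group (n = 3) had the floxed alleles alone, with neither Cre nor ITD. Rag1 is active in early lymphoid progenitors, so a Cre under its control acts in cells that have passed through such a state, and the labels used here state neither age nor sex. Mac1 is the integrin αM chain, encoded by Itgam, on granulocytes, monocytes and some dendritic cells.

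Dendritic cells present antigen to T cells and arise in the marrow in 3 broad kinds. Irf8 with Batf3 and Id2 directs the cDC1 kind, which cross-presents antigen; Irf4 and Klf4 act in the cDC2 kind; and Irf8, Zeb2 and Bcl11a, with the E protein Tcf4, act in plasmacytoid cells. Batf3 and Batf are small leucine zipper proteins that pair with Jun proteins and bind beside Irf4 or Irf8. Zbtb46 marks conventional dendritic cells and is not made by classical monocytes or granulocytes. Ikzf1 (Ikaros) is a zinc finger factor used throughout blood cell formation. Several of these factors also serve monocytes, B cells and T cells, and bulk RNA cannot tell more cells of a kind from more RNA in each cell.

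Values are RPKM, read counts scaled for gene length and library size, as deposited. Between 2824091 reads (DKOITD 2) and 23114869 reads (WT 1) per library were recovered from them. The denominators of the RPKM columns were 1.1273 to 1.4417 times these reads in DKOITD, 0.8536 to 0.919 times in ITD and 0.7037 to 0.8099 times in WT, so the scale of a library moves with genotype. WT 2 stood apart, with a median correlation of 0.759 to the other libraries across genes against 0.815 to 0.881 for the others. DKOITD 1 to 3 carry label numbers 228, 267 and 274, and every other library, DKOITD 4 included, a number from 385 to 393. What the numbers stand for is not given. The labels were checked against the genes they name. Ezh2 ranged from 1.54 to 18.1 RPKM in DKOITD and from 2.05 to 12.4 in WT (log2 difference 0.14 ± 0.69, adjusted p = 0.913), and Runx1 had means of 14.9 and 9.10 RPKM (0.78 ± 0.46, adjusted p = 0.269). The level over the whole gene thus did not show a loss of either; reads over the floxed exons were not analysed here. Itgam, the gene of the sorting marker, was above 0 in all 9 libraries and lower in DKOITD (11.0 to 39.0) than in WT (90.3 to 143).

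Within each group the 10 factors covered a wide range of levels per length. Id2 was the highest in all 3, with a mean of 393 ± 203 RPKM in DKOITD (SD, n = 4), 219.8 ± 29.6 in ITD (n = 2) and 288 ± 56.8 in WT (n = 3). The order below it differed by group. In DKOITD it ran Batf3, Irf8, Klf4, Ikzf1, Batf, Zeb2, Irf4, Bcl11a and Zbtb46. Only the steps from Id2 to Batf3 and from Batf to Zeb2 separated neighbours whose libraries did not overlap, and Batf3 lay above Irf8 in 2 of 4 libraries. In WT the order was Ikzf1, Irf8, Klf4, Batf, Zeb2, Bcl11a, Irf4, Batf3 and Zbtb46. There, Id2 lay apart from Ikzf1 and Ikzf1 from Irf8, and the neighbours below overlapped. In ITD the order was Ikzf1, Irf8, Batf, Batf3, Klf4, Zeb2, Bcl11a, Irf4 and Zbtb46. Batf3 thus had rank 2 in DKOITD, rank 5 in ITD and rank 9 in WT.

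**Figure D1:**
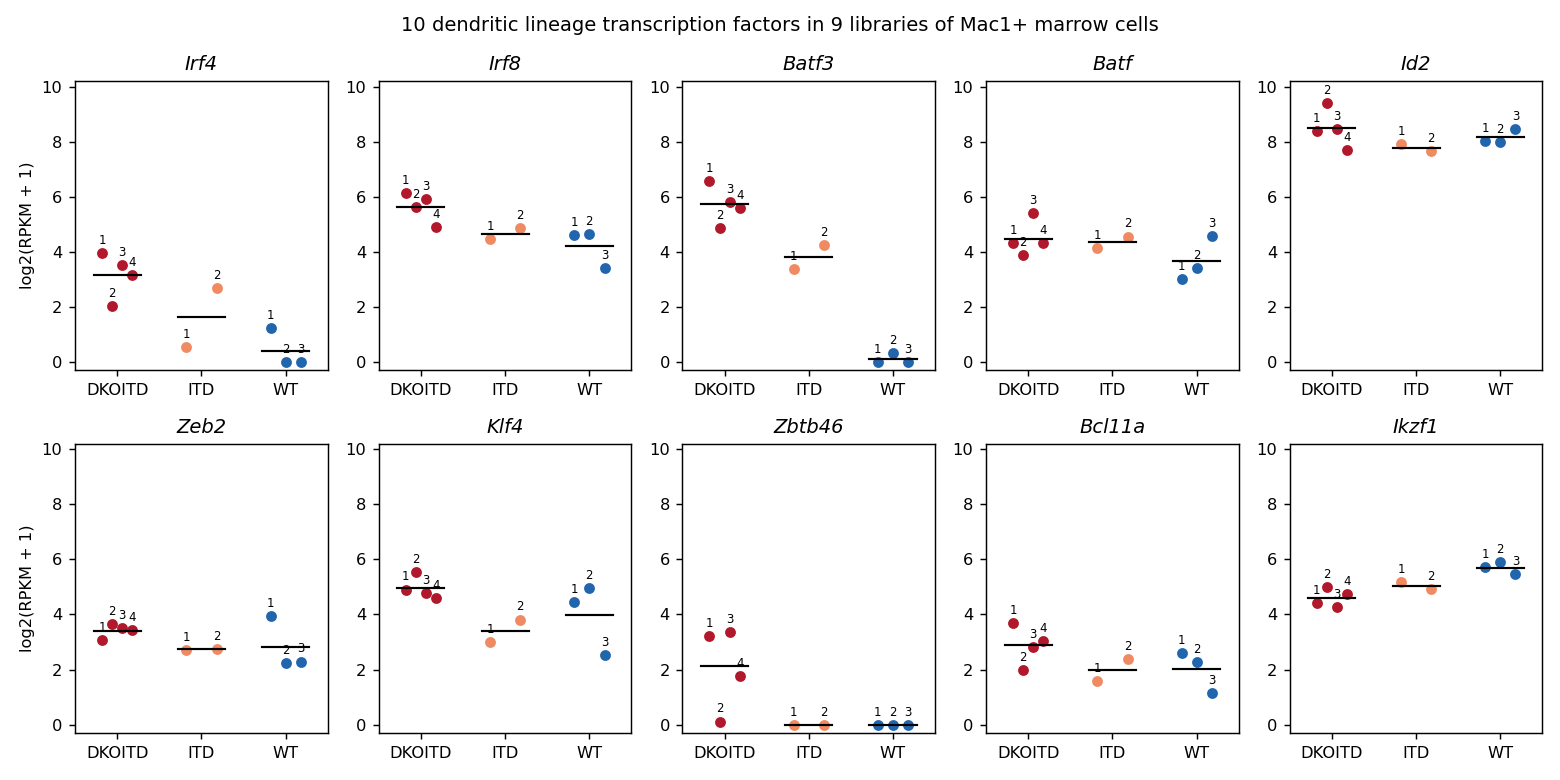
Level of each factor in every library as log2(RPKM + 1) on the vertical axis, by group on the horizontal axis; points are libraries numbered by replicate and the bar is the mean of the log values. Batf3 lies between 28.4 and 94.4 RPKM in DKOITD and at or below 0.248 in WT, Zbtb46 is above 0 in DKOITD libraries alone, and Ikzf1 is highest in WT.

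Of the 10 factors, Irf4, Irf8 and Batf3 were higher and Ikzf1 was lower in DKOITD than in WT past an adjusted p of 0.05, and 6 did not pass. In this comparison 12.7% of all 10868 genes tested passed (7.43% higher and 5.27% lower). The median difference of the 10 factors was 0.93 on the log2(RPKM + 1) scale, beside 0.17 over all genes tested. The libraries of the 2 groups did not overlap for 5 factors, 4 higher and 1 lower, where 25.0% of genes tested did not overlap (14.1% higher and 10.9% lower). The count of 4 rested on most libraries. It was 1 without DKOITD 1 or without DKOITD 3, and 2 without either ITD library, without WT 1 or without WT 2. In a fit with a term for the label number series it was 1, Batf3, among 4 genes of the whole table, since DKOITD 4 is then the one DKOITD library set against WT of the same series.

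In DKOITD against ITD none of the 10 passed, where 0.212% of genes tested did (0.156% higher and 0.0552% lower); 3 factors and 1701 genes had an unadjusted p under 0.05, and limma voom on recovered reads called none. The median difference was 0.94 for the factors and 0.11 for all genes. Irf8, Batf3, Zeb2, Klf4 and Zbtb46 did not overlap and were all higher in DKOITD, where 31.3% of genes did not overlap (17.3% higher). In ITD against WT none passed either, where 0.0092% of genes did, all higher; 1 factor and 862 genes had an unadjusted p under 0.05, and limma voom called none. The median difference was -0.01 for the factors and 0.0 for all genes. Batf3 lay apart as higher and Id2 and Ikzf1 as lower in ITD, where 19.1% of genes did not overlap (10.1% higher and 8.99% lower). These 3 comparisons share libraries, so they are not independent of each other.

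**Figure D2:**
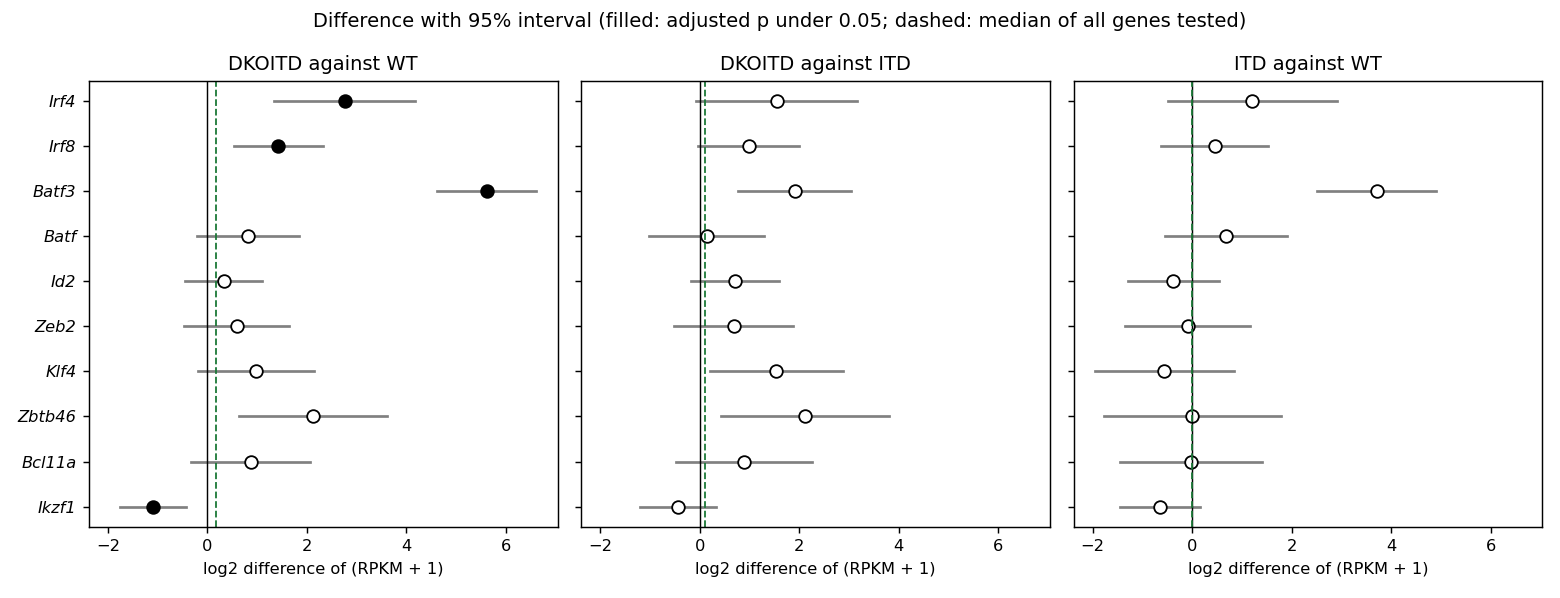
Difference of each factor in the 3 comparisons on the log2(RPKM + 1) scale (horizontal axis) with its 95% interval; filled points passed an adjusted p of 0.05 and the dashed line is the median of all genes tested. In DKOITD against WT, Batf3 lies at 5.61, Irf4 at 2.76, Irf8 at 1.42 and Ikzf1 at -1.09, and no point is filled in the other 2 panels.

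Irf8 and Irf4 encode related interferon regulatory factors that bind DNA weakly alone and more firmly beside a partner. Irf8 (chr8:120736358-120756694, plus strand, mm10) measured 69.4, 48.0, 59.8 and 28.6 RPKM in DKOITD 1 to 4, 21.0 and 28.1 in ITD 1 and 2, and 23.4, 23.9 and 9.59 in WT 1 to 3. Every DKOITD library lay above every ITD and WT library, although DKOITD 4 and ITD 2 nearly met. Relative to WT, Irf8 in DKOITD rose by 1.42 ± 0.41 log2 units (SE) (adjusted p = 0.0419, 95% interval 0.53 to 2.32), from a mean of 19.0 ± 8.14 to 51.4 ± 17.5 RPKM. Against ITD the difference was 0.98 ± 0.47 (adjusted p = 0.344), and of ITD against WT it was 0.45 ± 0.49 (adjusted p = 0.826). The call against WT held in 9 of 20 alternatives. The difference was 1.26 without DKOITD 1 (adjusted p = 0.120), 1.43 without DKOITD 2 (0.0720), 1.33 without DKOITD 3 (0.119), 1.62 without WT 1 (0.0521) and 1.02 without WT 3 (0.0890). It stayed at 1.42 without ITD 1 (adjusted p = 0.0590) and without ITD 2 (0.0595), which only share in the estimate of the spread. With a term for the label numbers it was 0.67 (adjusted p = 0.710).

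The 250 bases before the more upstream RefSeq start of Irf8 are shown (chr8:120736108-120736357, plus strand, GRCm38.p6). They were chosen because Irf8 is a factor called higher and this window holds no annotated exon. Capitals mark the 2 matches to TTCNNNGAA, the spaced half-sites (GAS) to which STAT proteins bind, a family that includes targets of FLT3 signalling.
Irf8 upstream window: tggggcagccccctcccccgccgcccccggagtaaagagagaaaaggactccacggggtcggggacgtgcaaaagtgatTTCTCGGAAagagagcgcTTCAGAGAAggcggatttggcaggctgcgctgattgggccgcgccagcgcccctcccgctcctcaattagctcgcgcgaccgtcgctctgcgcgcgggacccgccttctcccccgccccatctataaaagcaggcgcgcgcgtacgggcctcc
The matches lie at bases -171 to -163 and -153 to -145 from the start, and 7.02% of all windows of this length hold at least 1 match. The window of a RefSeq start further downstream in Irf8 (chr8:120738389-120738638) also holds no annotated exon. It held no match to any letters searched and is not shown. That start lies 2281 bases inside the most upstream GENCODE start. A match of letters describes the window and does not show that a protein binds there.

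Irf4 (chr13:30749226-30766976, plus strand) measured 14.5, 3.04, 10.6 and 7.95 RPKM in DKOITD, 0.455 and 5.50 in ITD, and 1.33, 0 and 0 in WT. All 4 DKOITD libraries lay above WT, while ITD 2 lay within the DKOITD range. It rose by 2.76 ± 0.65 in DKOITD against WT (adjusted p = 0.0207, 95% interval 1.34 to 4.18), from a mean of 0.445 ± 0.770 to 9.03 ± 4.83 RPKM. Against ITD the difference was 1.55 ± 0.74 (adjusted p = 0.347), and of ITD against WT 1.21 ± 0.78 (adjusted p = 0.721). The call against WT held in 14 of 20 alternatives and was lost, among others, without DKOITD 1 (2.5, adjusted p = 0.0645), without DKOITD 3 (2.64, 0.0632), without WT 2 (2.56, 0.0601) and with a term for the label numbers (2.75, 0.436). Within a library, Irf4 stood below Irf8 in all 9: the log2 ratio of Irf4 to Irf8 was -2.47 ± 0.80 in DKOITD, -3.04 ± 1.24 in ITD and -3.81 ± 0.72 in WT. The groups overlapped in this ratio, except that DKOITD and WT did not overlap when 0.1 was added in place of 1.

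Batf3, the partner of Irf8 in the cDC1 kind, differed by the largest amount of the 10 in DKOITD against WT. Batf3 (chr1:191097847-191108945, plus strand) measured 94.4, 28.4, 55.3 and 47.6 RPKM in DKOITD, 9.28 and 18.2 in ITD, and 0, 0.248 and 0 in WT. The 3 groups did not overlap: DKOITD lay above ITD and ITD above WT in every library. In recovered reads these values were 811, 74, 426 and 508 in DKOITD, 31 and 152 in ITD, and 0, 2 and 0 in WT. Pooled over libraries, the level in DKOITD was 912 times that in WT, with a 95% counting interval of 252 to 7533 that covers counting error only. Batf3 rose by 5.61 ± 0.46 on the log2(RPKM + 1) scale (adjusted p = 9.65e-05, 95% interval 4.61 to 6.61), from a mean of 0.0828 ± 0.143 to 56.4 ± 27.7 RPKM. This call held in 20 of 20 alternatives, with differences of 5.33 to 5.89 when 1 library was left out.

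Against ITD, where the mean was 13.7 ± 6.31 RPKM, Batf3 differed by 1.91 ± 0.52 (adjusted p = 0.105, 95% interval 0.77 to 3.04). It passed there in 3 of 20 alternatives. These were limma's library weights (1.99, adjusted p = 0.0398) and each column rescaled to its recovered reads (2.44, 0.0363) or to equal column sums (2.95, 0.0129). In ITD against WT the difference was 3.71 ± 0.55 (adjusted p = 0.0552, 95% interval 2.51 to 4.90). It passed in 2 of 20 alternatives, with 0.1 added in place of 1 (6.43, adjusted p = 0.0325) and without WT 3 (3.65, 0.0340).

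Batf, the close relative of Batf3 that serves activated lymphocytes as well as dendritic cells, did not separate the groups. Batf (chr12:85686669-85709087, plus strand) measured 18.8, 13.9, 41.6 and 18.8 RPKM in DKOITD, 16.5 and 22.5 in ITD, and 7.15, 9.58 and 22.6 in WT. All pairs of groups overlapped, with differences of 0.82 ± 0.47 for DKOITD against WT (adjusted p = 0.259, 95% interval -0.20 to 1.84), 0.14 ± 0.53 for DKOITD against ITD (adjusted p = 0.933) and 0.68 ± 0.56 for ITD against WT (adjusted p = 0.777). The ratio of the 2 relatives within a library is not moved by the scale of that library, apart from the pseudocount. The log2 ratio of Batf3 to Batf was 2.27, 0.98, 0.40 and 1.29 in DKOITD, -0.77 and -0.29 in ITD, and -3.03, -3.08 and -4.56 in WT. Batf3 was thus the higher of the pair in every DKOITD library and the lower in every ITD and WT library, and the 3 groups did not overlap. The group means were 1.24 ± 0.78, -0.53 ± 0.34 and -3.56 ± 0.87.

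**Figure D3:**
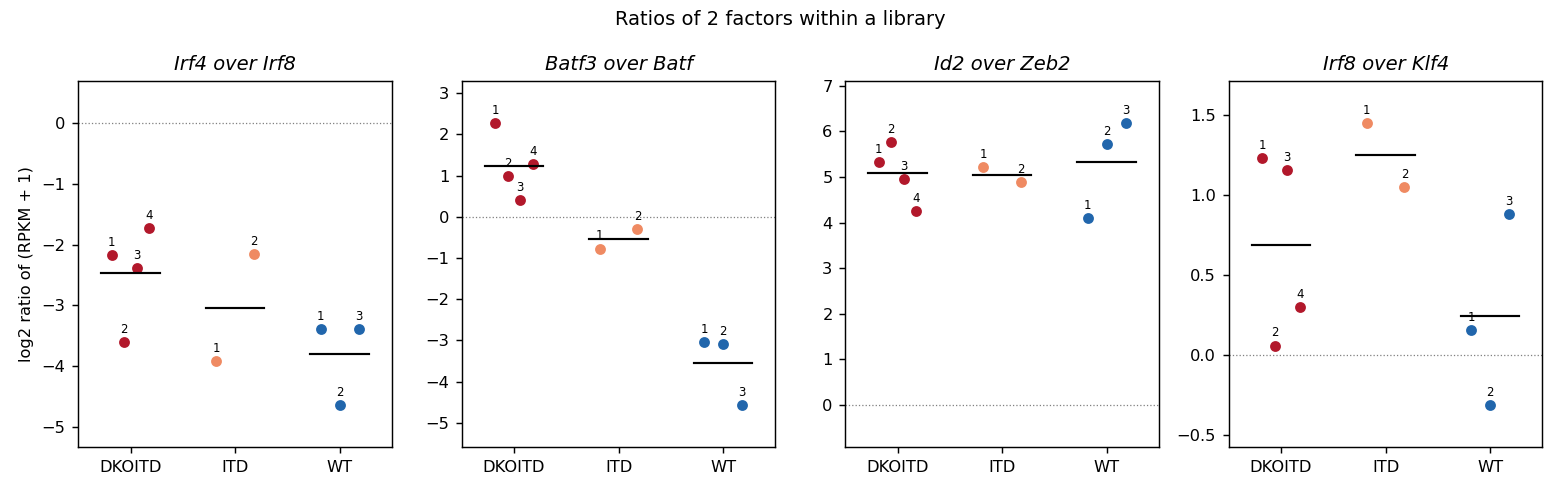
Log2 ratio of 2 factors within each library (vertical axis, on RPKM + 1) by group (horizontal axis); points are libraries numbered by replicate, bars are means and the dotted line marks equal levels. For Batf3 over Batf the DKOITD libraries lie at 0.40 to 2.27 and the WT libraries at -4.56 to -3.03, while in the other 3 ratios DKOITD overlaps both ITD and WT.

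Zbtb46, the factor that sets conventional dendritic cells apart from other myeloid cells, was detected in DKOITD libraries alone. Zbtb46 (chr2:181387762-181459426, minus strand) measured 8.38, 0.0820, 9.26 and 2.44 RPKM in DKOITD and 0 in both ITD and all 3 WT libraries. The DKOITD values came from 337, 1, 334 and 122 recovered reads, so DKOITD 2, the shallowest library, held 1 read. Against a floor of 3 reads over the group, the pooled level in DKOITD was at least 265-fold higher than in WT and at least 105-fold higher than in ITD. These bounds cover counting error only and not the spread between libraries. The floors were 0.0216 RPKM in WT and 0.0548 RPKM in ITD, beside 0.0820 RPKM in DKOITD 2. Zbtb46 reached 1 RPKM in DKOITD libraries only, and so entered the test through that group. Its fitted difference of 2.12 ± 0.68 against WT, which depends on the pseudocount, did not pass (adjusted p = 0.0608). It passed in 4 of 19 alternatives. These were without DKOITD 2 (2.79, adjusted p = 0.00896), limma voom on recovered reads (adjusted p = 0.0105), and columns rescaled to recovered reads (2.38, adjusted p = 0.0372) or to equal sums (2.73, 0.0207). It did not pass without DKOITD 1 (1.75, adjusted p = 0.148) or without DKOITD 3 (1.71, 0.157). Against ITD it did not pass (adjusted p = 0.205), nor without DKOITD 2 (adjusted p = 0.0688).

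The Zbtb46 window in RefSeq (chr2:181424389-181424638, minus strand, GRCm38.p6) is shown because it alone among the 15 windows of the 10 factors held a composite of an AP-1 site and an IRF half-site. Capitals mark the match, which on the other strand reads as GAAA directly followed by TGANTCA.
Zbtb46 window: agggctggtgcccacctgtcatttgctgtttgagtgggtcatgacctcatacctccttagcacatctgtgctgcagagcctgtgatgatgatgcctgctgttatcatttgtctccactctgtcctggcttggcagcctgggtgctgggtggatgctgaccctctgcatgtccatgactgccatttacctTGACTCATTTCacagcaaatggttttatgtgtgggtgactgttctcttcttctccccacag
The match lies at bases -61 to -51 and contains the AP-1 letters TGANTCA; 0.1% of all windows hold this adjacent composite and 6.75% hold the AP-1 letters. Batf proteins with Jun and Irf4 or Irf8 bind composites of this kind. The window belongs to a start 35038 bases inside the most upstream GENCODE start of Zbtb46, so it is an intron of the longest form and not its upstream promoter. The data do not show which start was used.

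Across the 15 windows, TTCNNNGAA was found in 5, of Irf8, Batf3, Bcl11a and a pair of overlapping windows of Zeb2. In Batf3 it reads TTCCACGAA at -239 to -231. The AP-1 letters were found in 2, of Zbtb46 and Zeb2. The Batf3 window has 163 of its 250 bases in GENCODE exons, and its start lies 567 bases inside the most upstream GENCODE start. The Zeb2 windows with matches hold 98 to 191 exon bases, from starts 4116 to 7118 bases inside. That of Bcl11a holds 25 exon bases, from a start 2639 bases inside. The RUNX letters TGTGGT, bound by the product of the floxed Runx1, were found in 1, that of Batf, with 2 matches, and in 14.0% of all 32851 windows. No window of the 10 held the interferon element, a pair of GAAA letters spaced by 2 bases (2.98% of all windows), the Ets and IRF composite, GGAA and GAAA spaced by 2 bases (2.3%), AGGAAGT of PU.1 (7.69%) or the distal composite, TTTC with TGANTCA 4 bases after it (0.0974%). Both strands were searched, and letters missing from these windows say nothing of sites elsewhere.

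Id2 and Zeb2 are opposed in textbook accounts: Id2 blocks E proteins such as Tcf4 and is needed by cDC1 cells, while Zeb2 is a zinc finger repressor needed by plasmacytoid cells and monocytes. Id2 (chr12:25093799-25097140, minus strand) measured 332, 682, 353 and 207 RPKM in DKOITD, 241 and 199 in ITD, and 259.9, 251 and 354 in WT. DKOITD 2 was the highest, and the other DKOITD libraries lay within the range of ITD and WT. The differences were 0.33 ± 0.36 against WT (adjusted p = 0.552, 95% interval -0.44 to 1.1) and 0.71 ± 0.40 against ITD (adjusted p = 0.431), and -0.38 ± 0.42 for ITD against WT, which did not pass (95% interval -1.30 to 0.54). Zeb2 (chr2:44983632-45117395, minus strand) measured 7.35, 11.5, 10.3 and 9.86 RPKM in DKOITD, 5.54 and 5.75 in ITD, and 14.3, 3.75 and 3.90 in WT. WT 1 was the highest of all 9 libraries, above the other WT libraries by a wide margin, and DKOITD lay above ITD without overlap. Zeb2 differed by 0.59 ± 0.48 against WT (adjusted p = 0.429) and by 0.68 ± 0.55 against ITD (adjusted p = 0.595), and ITD against WT differed by -0.09 ± 0.58 (adjusted p = 0.999). The log2 ratio of Id2 to Zeb2 was 5.08 ± 0.64 in DKOITD, 5.05 ± 0.23 in ITD and 5.33 ± 1.1 in WT, and the groups overlapped. Zeb2 shares 653 bp of exon with the antisense gene Zeb2os, and without strand the reads of the 2 cannot be told apart.

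Klf4, which acts in monocytes and in part of the cDC2 kind, and Bcl11a, which acts in plasmacytoid and B cells, showed no passed difference. Klf4 (chr4:55527143-55532466, minus strand) measured 29.0, 46.1, 26.2 and 23.0 RPKM in DKOITD, 7.07 and 13.1 in ITD, and 20.8, 29.8 and 4.73 in WT. Both ITD libraries lay below all 4 DKOITD libraries, and the WT libraries spread from below ITD into the DKOITD range. The difference was 0.98 ± 0.54 against WT (adjusted p = 0.238) and 1.54 ± 0.61 against ITD (adjusted p = 0.242, 95% interval 0.21 to 2.87), and -0.56 ± 0.64 for ITD against WT (adjusted p = 0.836). The log2 ratio of Irf8 to Klf4 was 0.69 ± 0.59, 1.25 ± 0.28 and 0.25 ± 0.60 in DKOITD, ITD and WT. DKOITD overlapped both other groups, while both ITD libraries (1.45 and 1.05) lay above all WT libraries (0.88 at most). Bcl11a (chr11:24078056-24174123, plus strand) measured 11.9, 2.96, 6.12 and 7.19 RPKM in DKOITD, 2.00 and 4.28 in ITD, and 5.13, 3.85 and 1.23 in WT. DKOITD 1, 3 and 4 lay above all others and DKOITD 2 within them. Its differences were 0.87 ± 0.55 against WT (adjusted p = 0.303), 0.89 ± 0.63 against ITD (adjusted p = 0.535) and -0.02 ± 0.66 for ITD against WT. Bcl11a shares 316 bp of exon with the antisense gene 4930538E20Rik.

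Ikzf1 was the one factor lower in DKOITD than in WT. Ikzf1 (chr11:11685003-11772926, plus strand) measured 20.4, 31.0, 18.5 and 25.5 RPKM in DKOITD, 35.0 and 29.4 in ITD, and 51.3, 59.5 and 43.1 in WT. WT lay above both other groups in every library, and DKOITD 2 lay within the ITD range. Relative to WT, it fell by 1.09 ± 0.31 log2 units in DKOITD (adjusted p = 0.0387, 95% interval -1.76 to -0.42), from a mean of 51.3 ± 8.18 to 23.9 ± 5.59 RPKM. Against ITD the difference was -0.44 ± 0.35 (adjusted p = 0.590), and of ITD against WT -0.65 ± 0.37 (adjusted p = 0.693). This direction depended on the scale of the libraries: with columns rescaled to equal sums the difference was 0.28 (adjusted p = 0.477), and per recovered read -0.34 (adjusted p = 0.414). The call held in 8 of 20 alternatives. Leaving out 1 library gave -1.22 to -0.98, past the threshold without DKOITD 2 (-1.22, adjusted p = 0.0387) and without WT 3 (-1.20, 0.0306). It did not pass without DKOITD 1 (-1.02, adjusted p = 0.103), DKOITD 3 (-0.98, 0.115), DKOITD 4 (-1.13, 0.0611), ITD 1 (-1.09, 0.0561), ITD 2 (-1.09, 0.0555), WT 1 (-1.08, 0.0766) or WT 2 (-0.98, 0.0915).

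The scalings moved all genes together. The median difference of all genes in DKOITD against WT was 0.17 as deposited, -0.03 after quantile normalization, 0.74 per recovered read and 1.23 with equal column sums, and the genes called were 807 higher and 573 lower as deposited, 678 and 767, 2528 and 247, and 5008 and 127. Of the 10 factors, 3 higher and 1 lower passed as deposited and after quantile normalization, 6 higher and 0 lower per recovered read, and 9 higher and 0 lower with equal column sums. Taken relative to the median of all genes, the factors moved less. Batf3 lay 5.44 above that median as deposited and 5.25 to 5.32 under the 3 other scalings, Irf4 2.59 and 2.39 to 2.61, and Irf8 1.25 and 1.40 to 1.55. Ikzf1 lay at -1.26 as deposited, -0.95 with equal column sums, -1.08 per recovered read and -1.09 after quantile normalization.

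**Figure D4:**
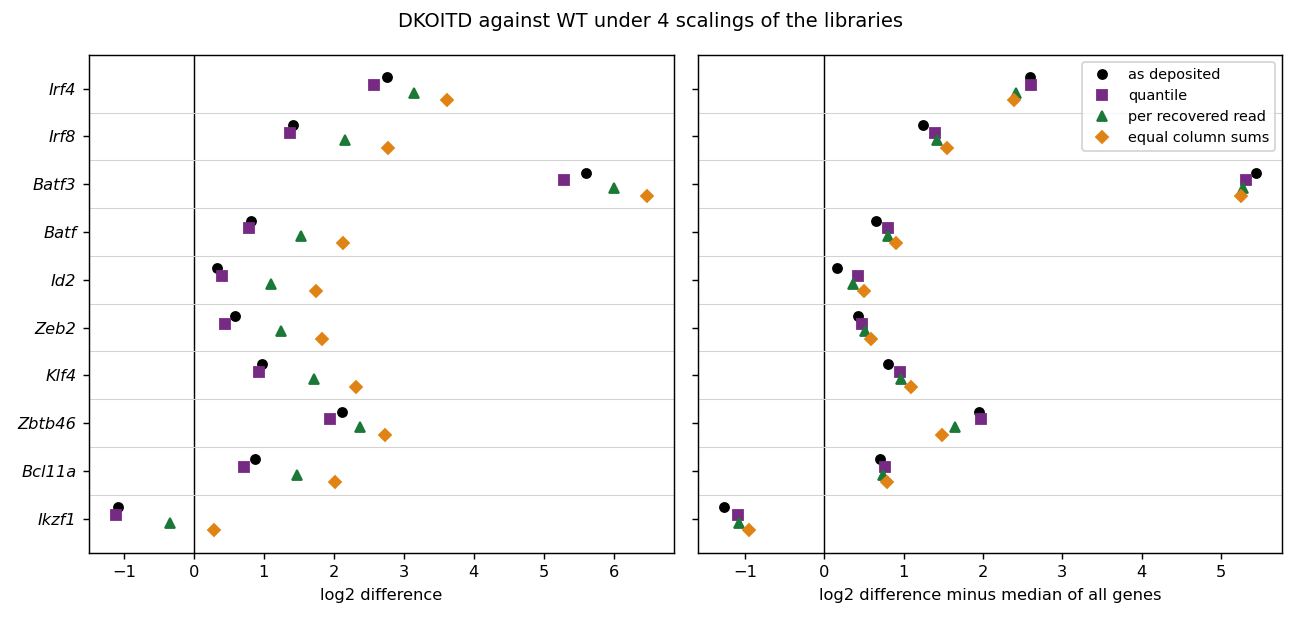
Difference of each factor in DKOITD against WT under 4 scalings of the libraries, as the log2 difference (left) and minus the median of all genes tested (right). On the left Ikzf1 moves from -1.09 as deposited to 0.28 with equal column sums; on the right it stays between -1.26 and -0.95 under all 4, and Batf3 between 5.25 and 5.44.

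The 4 DKOITD libraries differed in which factors were high. DKOITD 2 had the lowest value of that group for 5 factors (Irf4, Batf3, Batf, Zbtb46 and Bcl11a) and the highest for 4 (Id2, Zeb2, Klf4 and Ikzf1). DKOITD 1 had the highest for 4, among them Irf4, Irf8 and Batf3. The highest over the lowest DKOITD library was 113-fold for Zbtb46, which rests on 1 read in DKOITD 2, 4.79-fold for Irf4, 4.03-fold for Bcl11a and 3.32-fold for Batf3, and 1.57-fold for Zeb2. Taken over all 9 libraries after centring each gene on its mean, the pairs of factors with the most alike log2 values were Irf8 with Bcl11a (root mean square difference 0.53), Irf8 with Klf4 (0.58) and Id2 with Zeb2 (0.65). Batf3 and Ikzf1 were the least alike (3.0). The root mean square difference was not scaled to the spread of each factor. Factors that varied little, such as Id2 (SD 0.54) and Zeb2 (SD 0.6), can thus lie close without a shared pattern. Batf3, with an SD of 2.65, can lie far from a factor that rises and falls with it. Among all genes tested, the nearest to Irf4 were the protease gene Lgmn (0.38), Kynu (0.43) and P2ry6 (0.45). The nearest to Batf3 were Bcl2a1a (0.54), Ifi205 (0.66) and Gramd3 (0.66), and those to Zbtb46 were Apod (0.08), Tgtp1 (0.30) and Cd226 (0.34). Bcl2a1a belongs to a family of near-identical copies that may share reads. Apod and Cd226 were listed at 0 in DKOITD 2, where Zbtb46 held 1 read.

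Relatives of the 10 factors were read from lists of whole families, where counts as low as 1 of 6 or 1 of 8 stand near the 12.7% of all genes called. In DKOITD against WT, 1 of 6 other IRF genes tested passed: Irf5, which acts in inflammatory myeloid cells, rose by 1.55 ± 0.35 (adjusted p = 0.0153), from 16.0 to 29.4 RPKM across WT to 53.7 to 77.7 across DKOITD. Of 8 other AP-1 genes, the stress factor Atf3 rose by 3.04 ± 0.77 (adjusted p = 0.0262). Of 5 other Id and E protein genes, Id3 rose by 2.88 ± 0.64 (adjusted p = 0.0154) and Tcf4 by 2.10 ± 0.46 (adjusted p = 0.0138). Id3 reached 1 RPKM outside DKOITD in ITD 2 alone (5.91), so it entered the test through DKOITD. Tcf4, the E protein that specifies plasmacytoid cells, measured 7.10 to 13.2 RPKM in DKOITD, 3.08 and 3.19 in ITD, and 0.955 to 3.07 in WT. Of 10 other KLF genes, Klf13 rose by 1.21 ± 0.35 (adjusted p = 0.0429), and 3 fell: Klf5 by 3.0 ± 0.59 (adjusted p = 0.00888), Klf7 by 1.89 ± 0.55 (adjusted p = 0.0421) and Klf2 by 1.82 ± 0.52 (adjusted p = 0.0387). The median of the 10 KLF genes was -0.85, beside 0.17 for all genes. Bcl11b, the T cell relative of Bcl11a, was listed at 0 in all 9 libraries, and neither Zeb1 nor the 1 other Ikaros family gene tested passed.

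Among 20 tested of 22 other regulators of dendritic cells, 4 rose and 1 fell in DKOITD against WT, where 7.43% of all genes tested passed as higher and 5.27% as lower. Their median difference was 0.20, close to the 0.17 of all genes. Cbfa2t3, a corepressor of dendritic progenitors, rose by 2.5 ± 0.55 (adjusted p = 0.0153), from 0.744 to 4.44 RPKM across WT to 7.93 to 23.0 across DKOITD. Spib, an Ets factor of plasmacytoid cells, measured 11.1, 1.47, 5.44 and 2.30 RPKM in DKOITD and 0 in all ITD and WT libraries (adjusted p = 0.0189). Mycl1, the table's name for the proliferation gene Mycl of dendritic progenitors, measured 7.04, 1.25, 1.69 and 4.41 RPKM in DKOITD, 0 and 0.0244 in ITD, and 0 in WT (adjusted p = 0.0230). Like Zbtb46, Spib and Mycl1 reached 1 RPKM in DKOITD libraries only and so entered the test through that group; their p-values and their place in the count of 4 carry that limit. Tcf4 is the fourth of the rises. Cebpb, which acts in granulocytes and monocytes, fell by 2.00 ± 0.52 (adjusted p = 0.0287), from 24.5 to 67.3 RPKM in WT to 6.01 to 26.4 in DKOITD. Against ITD, and in ITD against WT, none of the 20 passed.

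Markers of several cell types moved in the same libraries as the factors. All 8 genes shared by conventional dendritic cells, such as H2-Aa and Itgax, rose in DKOITD against WT, and their summed level was 8910.1 to 35068 RPKM in DKOITD, 4002 to 10765 in ITD and 45.0 to 1202 in WT. Flt3, 1 of the 8 and the gene that carries the ITD, measured 34.5, 26.1, 39.2 and 8.80 RPKM in DKOITD, 0 and 10.4 in ITD, and at most 0.145 in WT. Outside DKOITD it reached 1 RPKM in ITD 2 only, and so entered the test through DKOITD. Of 7 cDC1 markers tested among 11, 3 rose (Clec9a, Ifi205 and Naaa). Clec9a reached 1 RPKM outside DKOITD in ITD 2 alone (1.73), so it too entered the test through DKOITD. The cDC1 sums were 129 to 324 in DKOITD, 82.1 to 92.6 in ITD and 16.1 to 55.1 in WT, and Xcr1, the defining cDC1 receptor, was at or under 0.614 RPKM in DKOITD and at 0 in ITD and WT. Of 8 cDC2 markers tested among 10, 5 rose. The cDC2 sums were 925 to 3686 in DKOITD, 346 to 944 in ITD and 111 to 195 in WT. Much of that sum in DKOITD was Cd209a, at 356 to 2628 RPKM there. Clec4a4 (0.23 ± 0.77 against WT), Sirpa (-0.40 ± 0.31) and Ltb (-0.75 ± 0.33) did not pass. Ltb had a lower mean in DKOITD (30.3 RPKM) than in WT (52.2) or ITD (67.3), and DKOITD overlapped neither. Esam and Dtx1 were at 0 in all libraries. In that list Cd209a also rose in ITD against WT and Clec10a in DKOITD against ITD.

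Sums of plasmacytoid and of mature dendritic markers lay above WT in all 4 DKOITD libraries. Of 6 plasmacytoid markers tested among 12, Bst2 and Tcf4 rose, with sums of 115 to 390.5 RPKM in DKOITD, 163 to 213 in ITD and 89.6 to 101 in WT. Much of the higher sum in DKOITD was Bst2, at 45.7 to 239.7 RPKM there and 3.58 to 19.9 in WT. Smim5 and Klra17 did not pass and had lower means in DKOITD (47.3 and 14.3 RPKM) than in WT (60.6 and 18.1). The median difference of the 6 was 1.7. Siglech, the defining marker, measured 5.81, 0, 1.77 and 0.974 in DKOITD and 0 elsewhere, and Klk1 and Pacsin1 were at 0 in all libraries. Of 9 mature dendritic markers tested among 10, 5 rose, with sums of 106 to 392 in DKOITD, 24.6 to 26.8 in ITD and 2.48 to 23.6 in WT. Ccl22, Ccr7 and Socs2 also passed in DKOITD against ITD; all 3 were at 0 in ITD and WT and entered the test through DKOITD alone. Ccr7, the receptor that guides mature dendritic cells to lymph nodes, was at 0 in ITD and WT and at 9.19 to 140.1 RPKM in DKOITD.

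Markers of monocytes, neutrophils and lymphoid cells were read in the same way. Of 11 monocyte markers 3 rose (Ms4a6c, Fcgr1 and Ccr2), and their sums of 2167 to 3417 RPKM in DKOITD, 3747 to 3928 in ITD and 2736 to 3264 in WT did not separate DKOITD from WT. Of 10 neutrophil markers 9 fell, and their sums were 35399 to 265916 in DKOITD, 682583 to 728758 in ITD and 879377 to 1193517 in WT, without overlap between any 2 groups. Cd79b rose among 2 B cell markers tested, with sums of 42.7 to 70.8, 7.65 to 23.2 and 5.16 to 15.5 RPKM in DKOITD, ITD and WT, and Pax5 and Vpreb3 were at 0 in all libraries. In the T, erythroid and basophil lists 1 gene each was tested and none passed, 1 NK gene, Nkg7, fell, and Cd34 rose among 3 stem cell genes tested. Cd34 reached 1 RPKM outside DKOITD in ITD 1 alone (1.54), so it entered the test through DKOITD. The part of these cell types, of the label number series and of the library scale in the differences of the 10 factors was not tested.

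**Figure D5:**
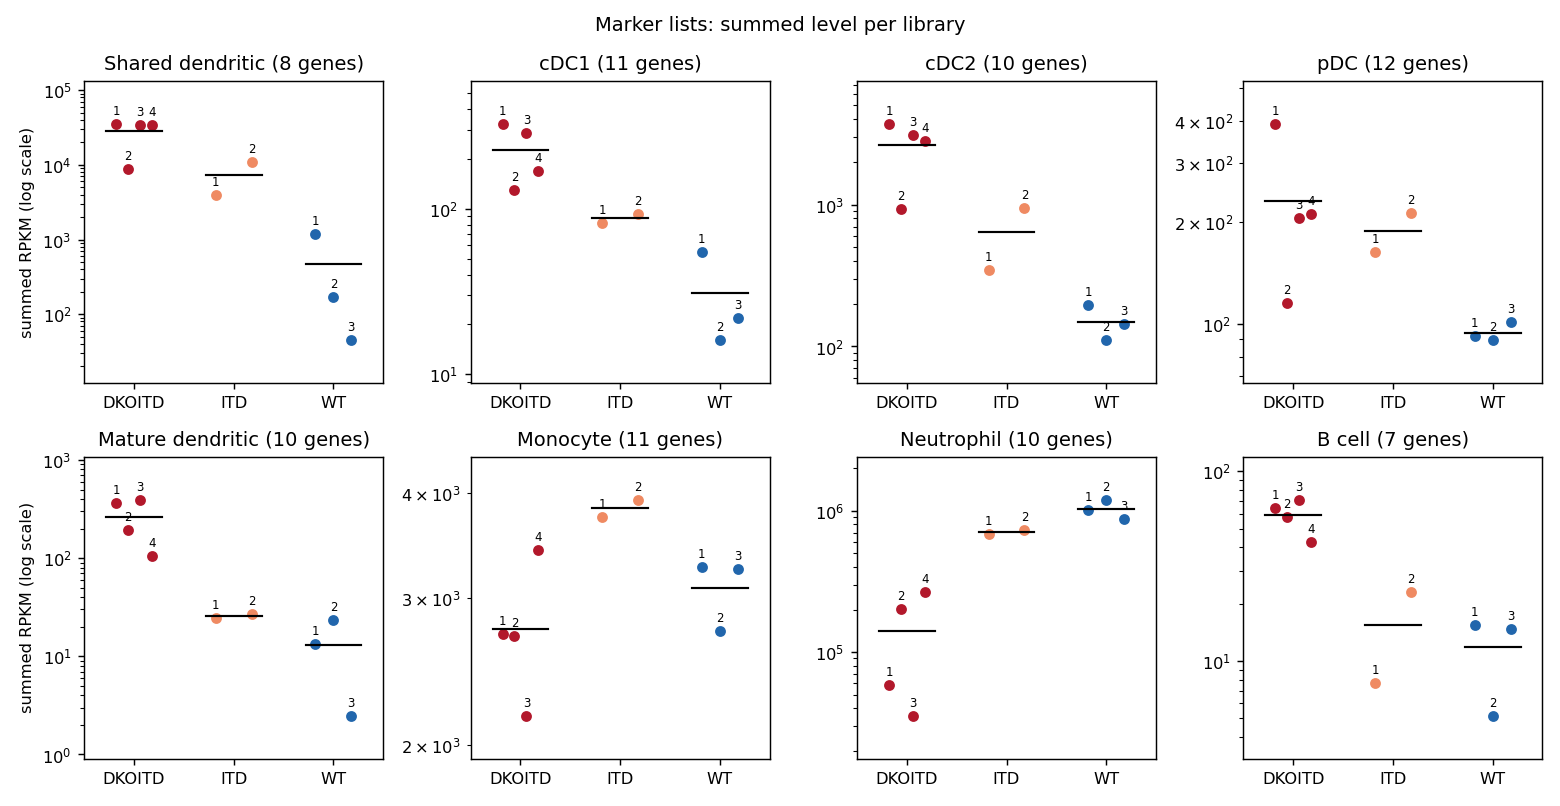
Summed RPKM of each marker list per library (vertical axis, log scale) by group (horizontal axis); points are libraries numbered by replicate, bars are arithmetic means and the number of genes summed is in each title. The 8 shared dendritic genes sum to 8910.1 to 35068 RPKM in DKOITD and at most 1202 in WT, neutrophil genes to at most 265916 in DKOITD and at least 879377 in WT, and monocyte sums of DKOITD and WT overlap.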

How the data were processed

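RNA of 100 sorted Mac1+ cells per library was made into Smart-seq2 libraries, which cover whole transcripts without strand, per the labels' protocols. The authors deposited 1 table of RPKM per gene symbol with a column for each of 9 libraries. The submitters' processing notes name the build mm10 and the tools STAR 2.4.2a, SAMtools 1.1 and HTSeq 0.6.1p1, without their roles. Annotation, counting settings and RPKM scaling: not given in the sources used here. Groups and replicate numbers came from the sample titles. Nothing in the labels ties each library to its own animal, so p-values measure the spread between these libraries, which may be technical.

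Genes that reached an RPKM of 1 in 2 or more libraries (10868, all 10 factors included) were fitted with limma 3.58.1 in R 4.3.3 on log2(RPKM + 1), all 9 libraries in one fit by genotype group, eBayes with a trend, two-sided, with Benjamini-Hochberg adjustment over all genes tested and a threshold of 0.05. Rose, fell and called refer to that threshold. The scale understates changes of low genes. The fit was tested on simulated data. Whole reads were recovered from the steps of the RPKM for 15566 of 15566 genes above 0 (100.0% of values within 0.01 of a whole read), taking the fewest reads that fit; 241 GENCODE vM21 exon lengths set the denominator. PCR reads carry no molecular identifiers and are not independent molecules. These reads served for depth, floors, 1 rescaling and limma voom, which was chosen after seeing the data.

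The factors, lists and tests were chosen with earlier results of these data known. Named genes follow a rule: all 10 factors, up to 4 called genes of each other list by size of difference, and markers at 0. Ezh2, Runx1, Flt3, Itgam and the 3 tested genes nearest to each factor with an SD of at least 1 also belong to it. Itgax, Irf7, Relb and Sfpi1 were added after their values were seen. Zeb1, Smim5, Klra17, Clec4a4, Sirpa and Ltb, which did not pass, were named outside the rule. Positions are from GENCODE vM21 (mm10) and windows from RefSeq (GRCm38.p6), where all 10 factors matched. Spi1 and Mycl were matched through older symbols as Sfpi1 and Mycl1, and Ly6g was not analysed here. Alternatives were another pseudocount, other filters and scalings, library weights, only the 2 groups compared, a replicate block, the label number series as a term, and leaving out each library.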

Additional observations from a re-analysis of the deposited data

How the results depend on the processing

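In DKOITD against WT the 4 factors called became 1 with a term for the label number series, 2 each without a filter on low values, with only the 2 groups compared and with a replicate block, and 9 with equal column sums, and ranged from 1 to 4 when 1 library was left out. The 1380 genes called became 4 with the label series, 733 without a filter, 884 with the replicate block, 5135 with equal column sums and 2775 per recovered read, and 537 to 1955 with 1 library left out. In DKOITD against ITD the 0 factors became 1 with library weights, 5 with equal column sums and 1 per recovered read. The 23 genes became 0 with the label series, 526 with weights, 0 under voom, 46 with 2 groups, 42 after quantile normalization, 57 with the replicate block, 1575 with equal column sums and 274 per recovered read, and 0 to 157 with 1 library left out. In ITD against WT the 0 factors became 1 with a pseudocount of 0.1 and 0 to 1 with 1 library left out. The 1 gene became 0 under voom, with 2 groups and with the replicate block, 3 without a filter and 2 with the pseudocount of 0.1, and 0 to 47 with 1 library left out. The cause was not tested.

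Signs turned for differences that had not passed, and for Ikzf1. In DKOITD against WT, Id2 was -0.46 with the label series and Ikzf1 0.28 with equal column sums. In DKOITD against ITD, Batf was -0.25 with the replicate block, -0.03 with the label series, -0.17 without DKOITD 3 and -0.08 without ITD 1 (-0.17 to 0.35 with 1 library left out), Id2 was -0.08 with the label series, and Ikzf1 was 0.60 with equal column sums and 0.10 per recovered read. In ITD against WT, Zeb2 was 0.17 with equal column sums, 0.07 per recovered read and 0.46 without WT 1 (-0.38 to 0.46), and Bcl11a was 0.01 with the pseudocount of 0.1, 0.21 with equal column sums, 0.12 per recovered read, 0.38 without ITD 1, 0.28 without WT 1, 0.11 without WT 2 (-0.45 to 0.38) and 0.16 under voom. Libraries with the same replicate number did not deviate together (correlations of -0.0444 to 0.0707). With 2 to 4 libraries per group, such correlations cannot exclude a pairing. Of the factor differences under all alternatives, 511 kept their direction and their side of the threshold, 28 lost a call, 20 gained one and 19 turned sign. The ITD group had 2 libraries and DKOITD 2 held 2824091 reads; what size of difference they could show was not tested.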

Other observations

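Irf7, an interferon-induced relative of Irf4 and Irf8 that plasmacytoid cells hold ready, split the DKOITD libraries. It measured 216, 8.68, 190.3 and 144 RPKM in DKOITD 1 to 4, 36.7 and 97.4 in ITD, and 16.8, 26.2 and 35.6 in WT. DKOITD 2 was the lowest of all 9 libraries and the other DKOITD libraries were the highest, and the difference of 1.75 ± 0.89 against WT did not pass (adjusted p = 0.206). Relb, an NF-kB subunit needed by dendritic cells, measured 24.0, 7.21, 29.5 and 8.07 RPKM in DKOITD and 1.75, 8.03 and 1.49 in WT, with a difference of 1.96 ± 0.74 (adjusted p = 0.10). Sfpi1, the table's name for the gene of PU.1, ranged from 187 to 218 RPKM in DKOITD and from 151 to 469.9 in WT and did not pass (adjusted p = 0.517). These 3 genes were named after their values were seen.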
